A study of Mus musculus with 6 samples.

Results

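*Parn* encodes the poly(A)-specific ribonuclease, 1 of the enzymes that shorten the poly(A) tails of RNAs, and it was compared in mouse islets with 9 other deadenylase genes. These 10 genes were taken by name, *Parn*, *Cnot6*, *Cnot6l*, *Cnot7*, *Cnot8*, *Pan2*, *Pan3*, *Toe1*, *Pde12* and *Noct*, from a table of 55060 genes, and all 10 passed the filter on low values. *Pan3*, the partner subunit of the nuclease *Pan2*, is counted among the deadenylases here. RNA was sequenced from the islets of 3 Ctrl and 3 cKO samples. The cKO mice were *Ins2-cre; Parn f/f*, so that the Cre recombinase, made under the promoter of the insulin gene *Ins2*, removes exon 7 of *Parn* in β cells, and the Ctrl mice were *Parn f/f* mice and other littermates, so a Ctrl sample can be of more than 1 genotype. The mice were 12 weeks of age by the heat map legend for these data, whereas the sample labels state no age. The endocrine cells of islets other than β cells, such as α and δ cells, do not use this promoter and so keep an intact *Parn*, and their RNA was sequenced with that of the β cells. The comparison asked how far *Parn* was lost in whole islets and whether any other deadenylase was expressed at a higher level in the cKO islets. All cKO mice carried *Ins2-cre*, and the labels do not say whether any Ctrl mouse did. Differences due to Cre and to the loss of *Parn* therefore cannot be told apart.

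The poly(A) tail protects most mRNAs from decay and helps their translation, and its removal is commonly the first step of mRNA turnover. In the cytoplasm, the CCR4-NOT complex carries 1 nuclease of the CCR4 type (CNOT6 or CNOT6L) and 1 of the CAF1 type (CNOT7 or CNOT8), and the PAN2-PAN3 complex acts on long tails. PARN acts on fewer mRNAs and also trims the 3′ ends of small nucleolar RNAs, telomerase RNA and other noncoding RNAs, while TOE1 trims small nuclear RNAs, PDE12 works in mitochondria, and Nocturnin (*Noct*) is a circadian relative of the CCR4 nucleases whose activity on tails has been questioned.

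*Parn* lies on the reverse strand of chromosome 16 (GRCm38, chr16:13537960-13668170, ENSMUSG00000022685). Exon 7 of *Parn-201*, the coding transcript in GENCODE M21, is shown because it is the part deleted in the cKO β cells. It is coding, lies at chr16:13654449-13654593, and holds 145 of the 2906 bases of the transcript (4.99%). It is followed here by the designed guide used to make the *Parn f/f* mice, with its PAM in capitals. The guide was found in none of the 5 annotated *Parn* transcripts, and its position in the genome was not determined here.
*Parn-201* exon 7: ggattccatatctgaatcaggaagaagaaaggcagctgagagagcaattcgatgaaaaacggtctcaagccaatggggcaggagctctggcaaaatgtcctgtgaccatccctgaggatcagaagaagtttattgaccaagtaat
*Parn f/f* guide: cgcacagctcagacgttgagAGG

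The length of exon 7 leaves 1 base after division by 3, so a transcript that joins exon 6 to exon 8 changes its reading frame. The junctions are shown to give what such a transcript would hold, each beginning with the last 15 bases of exon 6. In the first, the capitals mark exon 7, and in the second, 8 bases of exon 8 are followed by a stop codon in capitals. That stop is codon 133, where the intact transcript has 624 coding codons.
Exon 6 to exon 7: aagtgttttgcagtgGGATTCCATATCTGA
Exon 6 to exon 8: aagtgttttgcagtgagagaagaTAG

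Expression was given as FPKM, the fragments on a gene per kilobase of its exons and divided by a size set for each library, which allows levels to be compared between genes. That size, read back from the values, was not the number of reads on genes. It was 95.5% to 99.6% of that number in the Ctrl samples and 101% to 107% of it in the cKO samples. Its relation to the reads on genes thus differed between the genotypes, and differences are also given after rescaling where that turned a direction. Scaling each sample instead by the median ratio of its genes to their mean over samples moved the median log2 difference of all genes by only 8.51e-06. The values were thus already close to that scaling. Rescaling each sample to the same sum of FPKM (TPM) moved this median by 0.0988, and by -0.000917 with *Ins1* and *Ins2* left out of the sum. FPKM counted reads over the whole gene, of which exon 7 is 2.69% of the 5381 exonic bases counted, so a transcript without exon 7 still adds to the *Parn* value. Of the 5 annotated transcripts, 3 hold exon 7. The level of exon 7 itself was not analysed here.

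*Parn* was lower in cKO islets than in Ctrl islets in every sample, but it was still well expressed. In the Ctrl samples, in the order of their replicate numbers, its FPKM was 6.64, 8.34 and 7.38, and in the cKO samples, in the same order, 4.97, 4.61 and 6.15 (values of other genes follow this order too). The highest cKO sample was below the lowest Ctrl sample. These values rested on 431 to 706 reads a sample, with a counting error of at most 4.82%. The cKO mean of 5.24 ± 0.809 (SD, n = 3) was 29.6% below the Ctrl mean of 7.45 ± 0.854 (SD, n = 3). On the log2(FPKM + 1) scale, which is used for all differences below and understates those of genes with low FPKM, the difference between cKO and Ctrl was -0.44 (standard error 0.131, 95% interval -0.75 to -0.13). limma gave an unadjusted p of 0.0135 and an adjusted p of 0.545 (Benjamini-Hochberg over 21211 genes), so the difference did not pass the adjusted threshold of 0.05, and 522 genes had a lower unadjusted p than *Parn*. An exact two-sided permutation test gave p = 0.1, the smallest that 3 samples against 3 allow. Fewer cells of a type and less RNA per cell cannot be told apart in these bulk samples. Nothing in the labels says that the samples came from separate mice, and p-values then measure only the spread between these samples.

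**Figure D1:**
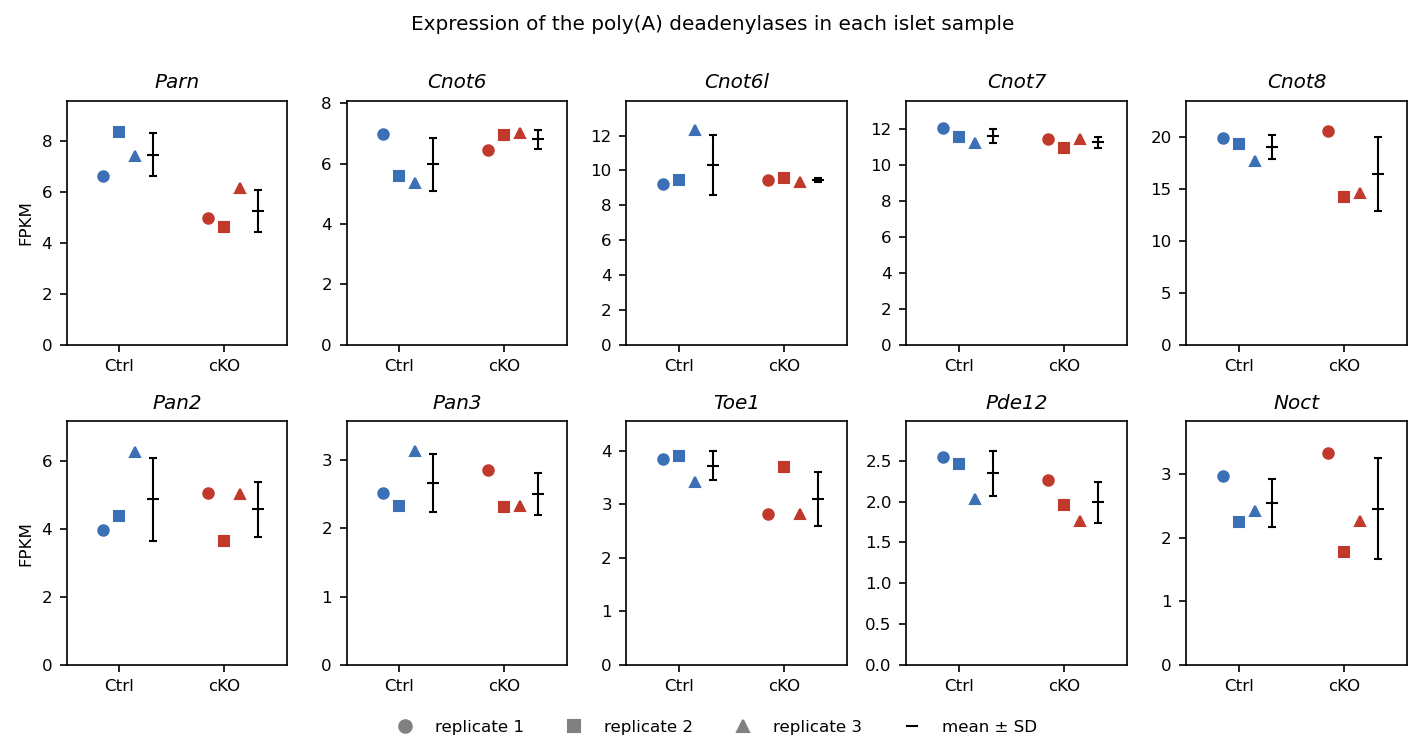
FPKM (y axes, from 0, 1 scale per gene) of the 10 deadenylase genes in the Ctrl (blue) and cKO (red) samples, with the mean ± SD in black. *Parn* is the 1 gene whose genotypes do not overlap, with cKO samples between 4.61 and 6.15 and Ctrl samples between 6.64 and 8.34.

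*Parn* was the 1 member of 10 with an unadjusted p under 0.05, where 7.40% of all genes tested had one (1570 of 21211). It was also the 1 member of 10 whose genotypes did not overlap, where 13.1% of all genes did not (2786). At an adjusted p under 0.05, 0 of the 10 members and 0% of all genes passed in limma, and 0 genes passed with voom, limma's method for reads, on reads read back from the FPKM values. With voom, the *Parn* level in cKO was 0.704 times that in Ctrl (95% interval 0.556 to 0.891, unadjusted p = 0.00844, Benjamini-Hochberg adjusted p = 0.442). The unadjusted p of *Parn* was under 0.05 in 16 of 16 other settings of the fit, including each that left out 1 sample, with differences of -0.54 to -0.35. The plot of *Parn* under each setting shows these differences all below 0. Not all settings were separate checks. Changing the filter, the trend or the block left the difference at -0.44, as did median-ratio scaling.

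**Figure D2:**
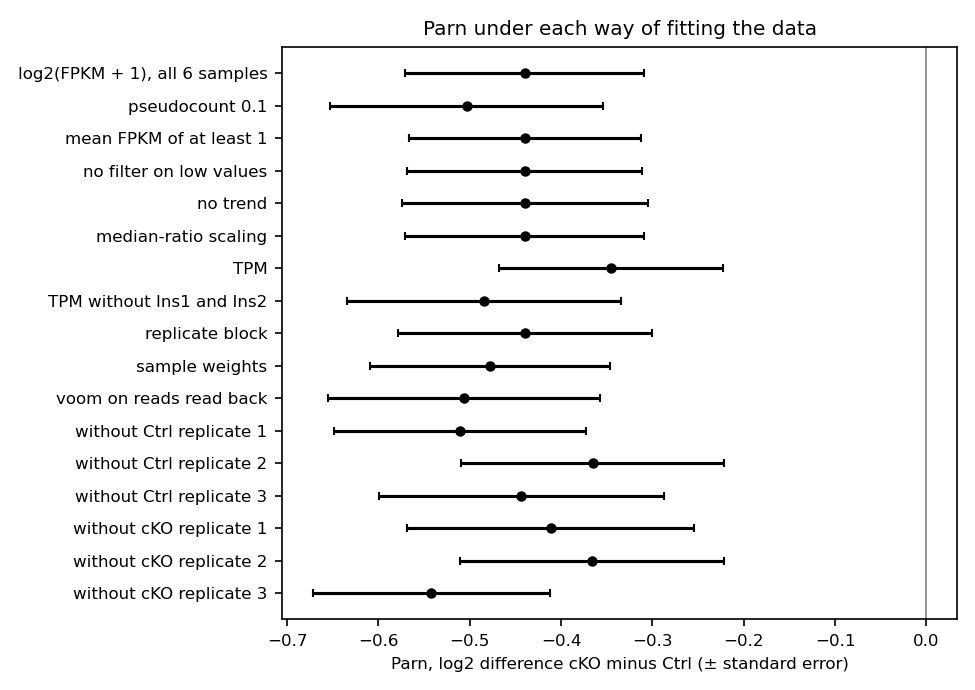
Log2 difference of *Parn* between cKO and Ctrl (x axis) with its standard error, as reported and under 16 other settings of the fit (y axis). The points lie between -0.54 and -0.35 on the negative side of the grey line at 0.

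None of the other 9 deadenylases passed the test in either direction, by an unadjusted or an adjusted p (limma, unadjusted p 0.142 to 0.775, Benjamini-Hochberg adjusted p 0.784 to 0.966), and voom gave 0 of the 9 at an unadjusted p under 0.05 too. In all 9, the Ctrl and cKO values overlapped. Here and below, genes are counted as higher or lower by their mean of log2(FPKM + 1). The mean was lower in cKO for 8 of them and higher for 1, *Cnot6*, although after rescaling each sample to the same sum of FPKM (TPM) 6 were higher and 3 lower. With *Ins1* and *Ins2* left out of that sum, 8 were again lower and 1 higher. The median difference of the 9 was -0.06, beside -0.01 over all genes tested, and 0.04 beside 0.08 after rescaling to TPM. In all genes tested, 53.5% had a lower mean in cKO. The 95% intervals reached at most 0.44 upward on the log2 scale, which was for *Cnot6*. On the scale of reads (voom), the lowest bound among the 9 intervals of the ratio of cKO to Ctrl was 0.624 (*Toe1*). The upper bounds were 1.09 for *Pde12*, 1.10 for *Cnot8* and *Toe1*, 1.13 for *Cnot7*, 1.14 for *Cnot6l*, 1.20 for *Pan3*, 1.31 for *Pan2*, 1.34 for *Noct* and 1.41 for *Cnot6*.

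**Figure D3:**
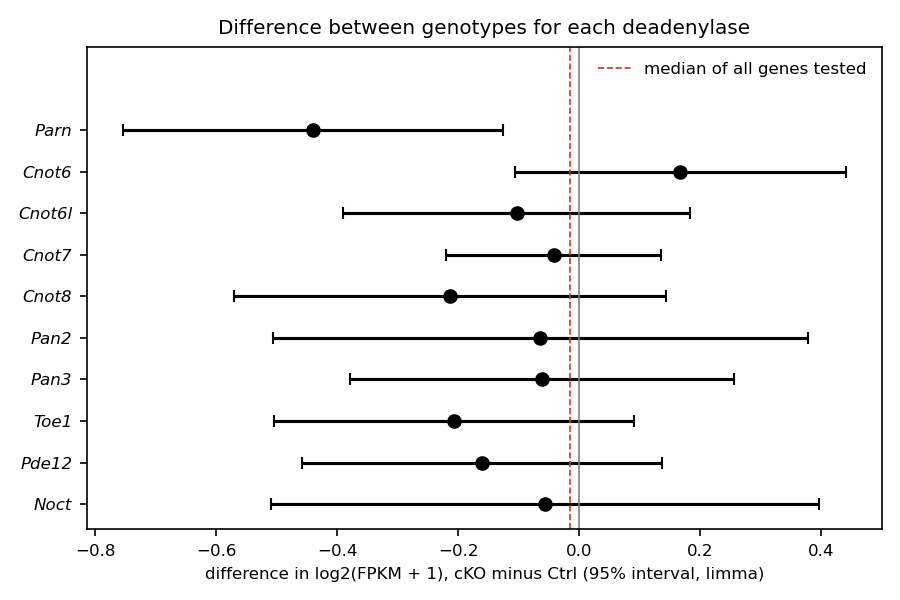
Difference in log2(FPKM + 1) between cKO and Ctrl (x axis) for each deadenylase, with the 95% interval of limma. The interval of *Parn* (-0.75 to -0.13) does not hold 0, those of the other 9 do, and the dashed red line marks the median of all genes tested at -0.01.

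The CAF1-type nucleases *Cnot7* and *Cnot8* had the highest mean FPKM of the deadenylases in both genotypes. *Cnot8* was at 19.96, 19.3 and 17.7 FPKM in Ctrl and at 20.6, 14.2 and 14.6 in cKO. cKO replicate 1 held the highest of these values and cKO replicates 2 and 3 the lowest, so the spread in cKO (SD 3.57) was wider than in Ctrl (SD 1.14). The difference was -0.21 (standard error 0.149, limma unadjusted p = 0.197), and the value of cKO replicate 1 decided it, since without that sample the unadjusted p was 0.00927 (difference -0.38). *Cnot7*, at 12.03, 11.6 and 11.22 in Ctrl and 11.4, 10.9 and 11.4 in cKO, was the steadiest of the 10 in Ctrl, with a coefficient of variation of 3.50%. Its difference was -0.04 (95% interval -0.22 to 0.14), the narrowest interval among the members. The ratio of *Cnot8* to *Cnot7* was 1.66, 1.67 and 1.58 in Ctrl and 1.80, 1.30 and 1.28 in cKO, so the genotypes overlapped in the balance of these paralogs.

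The CCR4-type nucleases showed the 1 member with a higher mean in cKO. *Cnot6* was at 6.98, 5.59 and 5.36 FPKM in Ctrl and at 6.44, 6.95 and 7.001 in cKO. Ctrl replicate 1 lay within the range of the cKO samples and the other two Ctrl samples below it. The difference was 0.17 (standard error 0.114, limma unadjusted p = 0.188), and without Ctrl replicate 1 it was 0.27 with an unadjusted p of 0.0299. *Cnot6l* was at 9.20, 9.46 and 12.3 FPKM in Ctrl and at 9.47, 9.58 and 9.35 in cKO, with Ctrl replicate 3 above the 5 others. Its difference of -0.10 (standard error 0.119, unadjusted p = 0.420) rested on that sample and turned to 0.02 without it. The sum of *Cnot6* and *Cnot6l* was 16.2, 15.05 and 17.7 FPKM in Ctrl and 15.9, 16.5 and 16.4 in cKO, and its mean was 16.3 FPKM in both genotypes.

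Reads could in principle be counted for the wrong paralog in these pairs. The coding sequences of *Cnot6* and *Cnot6l* were identical at 73.7% of aligned bases and those of *Cnot7* and *Cnot8* at 72.4%. The longest run without a mismatch was 20 bases in each pair. It is printed to show how short the longest stretch shared by the coding sequences is, and these shared no stretch of 50 bases. The other exonic bases counted for these genes were not compared. Whether reads were counted for the wrong paralog was not tested.
*Cnot6* and *Cnot6l*: cataaagacttcaaggaact
*Cnot7* and *Cnot8*: tcatttcacagtggttatga

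*Pan2*, the nuclease of the PAN2-PAN3 complex, and *Pan3*, the subunit that brings it to mRNAs, were expressed at lower levels. *Pan2* was at 3.96, 4.38 and 6.26 FPKM in Ctrl and at 5.06, 3.65 and 5.03 in cKO. The values of *Pan3* were 2.51, 2.33 and 3.14 in Ctrl and 2.85, 2.32 and 2.33 in cKO. Ctrl replicate 3 was the highest sample for both, as it was for *Cnot6l*. The differences were -0.06 (standard error 0.184) for *Pan2* and -0.06 (standard error 0.132) for *Pan3*, with limma unadjusted p of 0.738 and 0.658. Without Ctrl replicate 3 they turned to 0.10 and 0.03. The ratio of *Pan2* to *Pan3* averaged 1.82 ± 0.218 in Ctrl and 1.83 ± 0.296 in cKO (SD, n = 3 each).

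*Toe1*, the deadenylase most like *Parn* in its nuclear RNA targets, was at 3.85, 3.90 and 3.41 FPKM in Ctrl and at 2.81, 3.69 and 2.82 in cKO. A pair of cKO samples lay below all Ctrl samples, and cKO replicate 2 lay among them. The difference was -0.21 (standard error 0.124, limma unadjusted p = 0.142), and without cKO replicate 2 it was -0.31 with an unadjusted p of 0.0494. With 147 to 200 reads a sample, *Toe1* had the fewest reads of the members, and the counting error of a sample was up to 8.25%. In the annotation, 1212 bases, or 40.7%, of the exonic bases of *Toe1* also belong to *Tesk2* on the opposite strand, whose FPKM was 0.466 to 0.751. Whether the counting used the strand is not given in the sources used here, so reads in shared bases cannot be told apart and the *Toe1* values are uncertain to that extent.

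*Pde12*, a nuclease of mitochondrial RNA tails, was at 2.54, 2.46 and 2.03 FPKM in Ctrl and at 2.26, 1.96 and 1.76 in cKO. The lowest Ctrl sample lay among the cKO samples. Its difference was -0.16 (standard error 0.124, limma unadjusted p = 0.240). *Pde12* shares 527 exonic bases, 6.82% of its own, with *Arf4* on the opposite strand, which was at 32.2 to 48.5 FPKM, far above that of *Pde12*, so its values are uncertain in the same way. *Noct* was at 2.98, 2.25 and 2.43 FPKM in Ctrl and at 3.34, 1.78 and 2.26 in cKO. cKO replicate 1 was the highest and cKO replicate 2 the lowest of all 6 samples, and the coefficient of variation of *Noct* in cKO, 32.5%, was the largest of the members in either genotype. The difference was -0.06 (standard error 0.188, limma unadjusted p = 0.775).

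Other overlaps with expressed genes were smaller. *Cnot7* shares 247 exonic bases, 4.24% of its own, with *Zdhhc2* on the opposite strand (FPKM 29.8 to 52.5). *Vps37a* (16.3 to 21.7), the pseudogene *Gm12191* (43.9 to 92.9) and *Gm38357* (0.0934 to 0.645) lie over introns of *Cnot7*, *Cnot6* and *Noct* and share 0 exonic bases with them.

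Added together, the 9 other deadenylases had a mean of 58.6 FPKM in cKO and 63.1 FPKM in Ctrl. Their summed FPKM was 64.0, 61.3 and 63.9 in Ctrl and 64.2, 55.0 and 56.6 in cKO. cKO replicate 1 matched the Ctrl samples, and the other two cKO samples were lower. *Parn* made up 9.39%, 11.98% and 10.4% of the sum of all 10 in Ctrl and 7.19%, 7.72% and 9.81% in cKO. As a share of the deadenylases the genotypes therefore overlapped, since cKO replicate 3 exceeded Ctrl replicate 1. The 4 nuclease genes of CCR4-NOT together had 48.2, 45.9 and 46.6 FPKM in Ctrl and 47.9, 41.6 and 42.4 in cKO. Of the sum of all 10 genes they held 66.5% ± 1.46 in Ctrl and 68.9% ± 1.18 in cKO (SD, n = 3 each). The plot of pooled levels shows these values by sample.

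**Figure D4:**
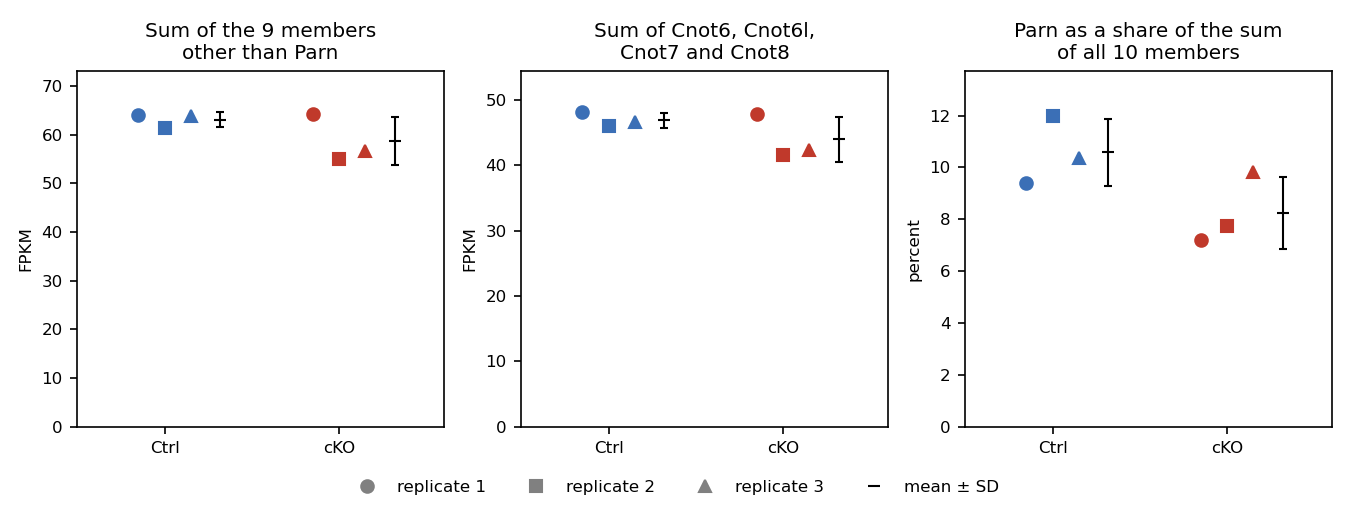
Summed FPKM of the 9 other deadenylases, summed FPKM of the 4 CCR4-NOT nuclease genes, and *Parn* as a percent of the sum of all 10 (y axes, from 0), by sample, with the mean ± SD in black. cKO replicate 1 lies with the Ctrl samples in both sums (64.2 and 47.9 FPKM), and in the share of *Parn* cKO replicate 3 (9.81%) lies above Ctrl replicate 1 (9.39%).

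By mean FPKM, the order in Ctrl islets was *Cnot8*, *Cnot7*, *Cnot6l*, *Parn*, *Cnot6*, *Pan2*, *Toe1*, *Pan3*, *Noct* and *Pde12*, from 19.0 to 2.35. Neighbours overlapped in their sample values for *Cnot7* and *Cnot6l*, for *Parn*, *Cnot6* and *Pan2* in turn, and for *Pan3*, *Noct* and *Pde12* in turn. In cKO islets, *Cnot6* (6.80) stood before *Parn* (5.24) and these did not overlap, while from *Parn* down each gene overlapped with the next. *Parn* thus moved from place 4 to place 5. The order depended on the length used, as FPKM divides by all exonic bases annotated for a gene, which for *Parn* are 1.85 times the length of the coding transcript and for *Pan3* 2.70 times. Per kilobase of the longest coding transcript, *Parn* stood in place 3 in Ctrl at 13.8 ± 1.58 (SD, n = 3), after *Cnot8* (23.9) and *Cnot7* (22.7) and before *Cnot6l* (12.4), and in place 4 in cKO at 9.71 ± 1.498.

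The genes whose pattern over the 6 samples was most like that of *Parn* were *Gstm2*, *Dffb*, *Ttyh3*, *Glt1d1* and *Csf2ra*. Likeness was measured as the root-mean-square difference of log2(FPKM + 1), centred on the mean of each gene, among 13362 genes whose mean FPKM was 1 or more, and it was 0.0612 for *Gstm2* and 0.0803 for *Csf2ra*. In *Gstm2*, a glutathione transferase, the FPKM was 8.98, 12.8 and 11.0 in Ctrl and 7.59, 6.54 and 8.79 in cKO, with the highest and the lowest value in the same samples as for *Parn*. No deadenylase was near. The closest was *Toe1* in place 2697 (0.239) and the farthest *Cnot6* in place 9669 (0.364). This is a description over 6 samples, which share their libraries and genotypes.

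Of 43 genes that act with the deadenylases or on the same tails, 40 passed the filter, and 0 differed at an adjusted p under 0.05 (limma). At an unadjusted p under 0.05 there were 1 higher and 1 lower (5%, against 7.40% of all genes). This count was 1 higher and 4 lower without Ctrl replicate 1 and also with sample weights (12.5%, against 11.3% and 11.8% of all genes), and 0 higher and 1 lower without cKO replicate 3 (2.50%, against 5.40%). As reported, 8 had genotypes that did not overlap (20%, against 13.1%). The mean was lower in cKO for 28 and higher for 12, which turned to 11 lower and 29 higher after rescaling to TPM, with a median difference of -0.06 that turned to 0.07. With *Ins1* and *Ins2* left out of the TPM sum, it was again 28 lower and 12 higher. The counts of each list below then also stayed as reported. *Btg4*, *Nanos2* and *Papolb*, which act mainly in germ cells, were at or near 0 and were not tested.

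Both genes below 0.05 were in the BTG family, whose members bind the CAF1-type nucleases and bring CCR4-NOT to mRNAs. *Btg1* was at 41.5, 32.3 and 38.4 FPKM in Ctrl and at 30.3, 28.2 and 27.9 in cKO (difference -0.36, standard error 0.108, limma unadjusted p = 0.0145, adjusted p = 0.545). *Btg3* had 27.8, 23.8 and 17.0 in Ctrl and 31.2, 31.4 and 30.4 in cKO (difference 0.45, standard error 0.172, limma unadjusted p = 0.0363, adjusted p = 0.641). The genotypes did not overlap in either gene, and the 2 genes lay in opposite directions. Among the 16 other settings of limma, *Btg1* stayed at an unadjusted p under 0.05 in 15, the exception being TPM (limma unadjusted p = 0.128). *Btg3* did so in 12, with limma unadjusted p of 0.0595 without Ctrl replicate 2 and of 0.0736 to 0.0852 without any 1 of the cKO samples. *Btg2*, the most highly expressed gene of the list at a mean FPKM of 149 in Ctrl and 172 in cKO, overlapped (difference 0.20, unadjusted p = 0.248). *Nanos1*, an RNA-binding protein that recruits CCR4-NOT, was at 1.34 ± 0.156 in Ctrl and 0.981 ± 0.179 in cKO (SD, n = 3 each) with no overlap (unadjusted p = 0.0978). Among the 10 recruiters tested, 6 had a higher and 4 a lower mean in cKO (7 and 3 after rescaling to TPM), and the median difference was 0.02. The 6 include *Tob1*, whose mean FPKM was slightly lower in cKO (43.84 in Ctrl and 43.77 in cKO).

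The subunits of CCR4-NOT that carry no nuclease had means close to each other in the genotypes. Of 8, 6 had a lower and 2 a higher mean (0 and 8 after rescaling to TPM), with 0 at an unadjusted p under 0.05 in limma and a median difference of -0.05. *Cnot2*, the highest of them, averaged 11.9 ± 0.905 FPKM in Ctrl and 11.4 ± 0.557 in cKO (SD, n = 3 each). *Cnot4*, an associated ubiquitin ligase, had 1.79, 1.83 and 1.92 in Ctrl and 1.75, 1.75 and 1.68 in cKO, which did not overlap but differed by only -0.06 (unadjusted p = 0.558).

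The proteins that cover poly(A) tails and the enzymes that lengthen them gave no gene at an unadjusted p under 0.05 in the fit as reported, but some under other settings. Of 6 poly(A) binding proteins, 4 had a lower and 2 a higher mean in cKO (median difference -0.09, and 3 and 3 after rescaling to TPM). *Pabpc1*, the main cytoplasmic one, averaged 30.5 ± 2.78 FPKM in Ctrl and 27.5 ± 1.04 in cKO (SD, n = 3 each), and *Pabpn1*, the nuclear one, had 12.4, 17.1 and 14.3 in Ctrl and 12.3, 11.9 and 11.9 in cKO with no overlap (difference -0.25, limma unadjusted p = 0.0764). *Pabpc1l* was low and higher in every cKO sample (mean FPKM 0.807 in Ctrl and 1.06 in cKO, unadjusted p = 0.217). Of 13 poly(A) polymerases and terminal nucleotidyltransferases, 12 had a lower mean and 1 a higher mean, with a median difference of -0.08 (5 and 8 after rescaling to TPM, median difference 0.04). *Papola*, the main nuclear poly(A) polymerase, had 30.0, 28.3 and 32.2 in Ctrl and 25.7, 26.7 and 28.0 in cKO, which did not overlap (difference -0.16, unadjusted p = 0.0905). *Tent5a*, named here after its values were seen, had the lowest difference of all 40 genes. Its FPKM in Ctrl was 8.13, 11.5 and 10.1, its FPKM in cKO 7.18, 8.81 and 6.15, and the genotypes overlapped (difference -0.38, standard error 0.164, limma unadjusted p = 0.0561). The unadjusted p of *Tent5a* in limma was 0.0386 with voom, 0.0370 with the replicate number as a block, 0.0166 with sample weights, 0.0197 without Ctrl replicate 1 and 0.0261 without cKO replicate 2. It was 0.182 with TPM. *Pabpn1* and *Tent5c* were at an unadjusted p under 0.05 without Ctrl replicate 1 and with sample weights. So were *Tent5d* without Ctrl replicate 2, *Papolg* without Ctrl replicate 3 and *Pabpc4* without cKO replicate 1. Each of these genes was lower in cKO. Over the 40 genes, the share at an unadjusted p under 0.05 was 7.50% with voom, with the block and without Ctrl replicate 3. All genes then had 7.47%, 6.01% and 7.64%. Without Ctrl replicate 2, 2 of the 40 genes passed, against 5.71% of all genes. Without cKO replicate 1 or cKO replicate 2, the share was 5.13% of 39 genes, against 6.37% and 5.63%. These calls were gathered over several fits, and a trend of the lists was not tested. Among 3 relatives of the nucleases, *Angel2* overlapped at 10.8 and 10.4, and *Pnldc1*, a germ-cell relative of *Parn*, was near 0 in every sample, at most 0.0717 in Ctrl and at least 0.0831 in cKO.

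**Figure D5:**
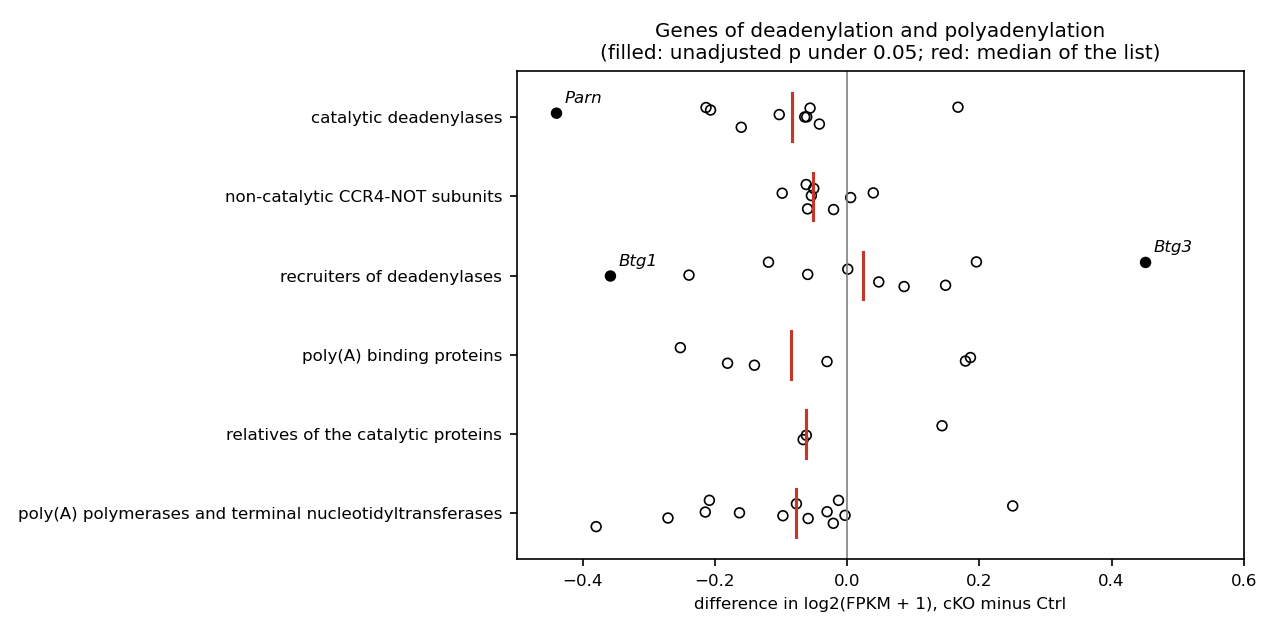
Difference in log2(FPKM + 1) between cKO and Ctrl (x axis) for each tested gene of the catalytic deadenylases and of the 5 lists around them (y axis), with the median of each list as a red bar. The filled points, *Parn* (-0.44), *Btg1* (-0.36) and *Btg3* (0.45), have an unadjusted p under 0.05, and the other points lie between -0.38 and 0.25.

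The markers of β cells and of other cell types also varied between the samples. Of 46 marker genes tested, 8 were at an unadjusted p under 0.05 in limma (17.4%, against 7.40% of all genes), and 16 had a lower mean in cKO (34.8%, against 53.5% of all genes). After rescaling to TPM, 12 of the 46 had a lower mean (26.1%, against 34.8% of all genes). β-cell markers were present at high levels in all samples, and 8 of 10 had a lower mean in cKO (summed FPKM 235964 to 276386 in Ctrl and 195405 to 217645 in cKO, 1 gene at an unadjusted p under 0.05), which became 5 of 10 after rescaling to TPM. That count of 1 depended on the fit. Without limma's trend of the variance with expression level, and also with voom, it was 4 of 10 (40%, against 7.34% and 7.47% of all genes). These 4 were *Iapp*, *Ins2* and *Ucn3*, lower in cKO, and *G6pc2*, higher. All 7 acinar and all 6 stromal markers had a higher mean in cKO (summed FPKM 5597 to 15821 and 7.44 to 14.8 in Ctrl, 7114 to 26071 and 11.2 to 36.6 in cKO), as did 5 of 6 endothelial markers (122 to 141 and 142 to 174), with 0, 1 and 2 genes at an unadjusted p under 0.05. All 5 leukocyte markers had a lower mean (without Ctrl replicate 1, 1 of the 4 then tested), and Ctrl replicate 1 stood apart with a summed FPKM of 586, where the other samples had 27.3 to 66.5. Of the alpha markers 4 of 5, of the delta markers 3 of 3 and of the duct markers 2 of 3 had a higher mean in cKO, and no marker of any list was at 0 in all samples. The pancreatic polypeptide gene *Ppy* was higher in cKO by the mean of log2(FPKM + 1) (difference 0.03). Its mean FPKM was lower, at 14004 in Ctrl and 13155 in cKO. The *Parn* difference was as large without Ctrl replicate 1 (-0.51). The part of the other cell types in it was not tested.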

How the data were processed

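RNA-seq of islets from 3 Ctrl and 3 cKO samples was used. Total RNA was extracted with TRIzol, libraries were made with a SMARTER mRNA kit, and the builds named in the submitters' processing notes are GRCm38 and mm10. The aligner, counting tool and strand setting are not given in the sources used here. The authors deposited FPKM per gene and sample. Multiplied by gene length, 100% of values were whole numbers of reads (within 0.01), so reads could be read back (16289408 to 17944775 on genes per sample, of which *Ins2* took 14.7% to 22.7%). log2(FPKM + 1) was compared with limma 3.58.1 in R 4.3.3 (two-sided, with a trend in the empirical Bayes step and Benjamini-Hochberg adjustment) for the 21211 genes whose mean FPKM was 0.1 or more. Scripts were tested on simulated data. Lengths and sequences came from GENCODE M21 transcripts, and coding sequences were aligned with Biopython 1.88. The guide came from the study's supplement. Figures were made with matplotlib 3.10.9.

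The members, gene lists and alternatives were chosen with earlier results of these data known. Named genes were all members, list genes at an unadjusted p under 0.05 or without overlap, the highest gene of each list, the 5 closest to *Parn* and expressed genes overlapping a member. The level per coding transcript was added after the values were seen.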

Additional observations from a re-analysis of the deposited data

How the results depend on the processing

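*Parn* kept its direction and an unadjusted p under 0.05 in all 16 alternatives, which were not all separate checks, and leaving out 1 sample gave differences from -0.54 to -0.37. The number of deadenylases at an unadjusted p under 0.05, 1 as reported, was 1 to 2 with 1 sample left out, the second being *Cnot6* without Ctrl replicate 1, *Cnot8* without cKO replicate 1 and *Toe1* without cKO replicate 2. In these fits, in the same order, 11.3%, 6.37% and 5.63% of all genes tested had an unadjusted p under 0.05. Rescaling FPKM to TPM, which moved the median of all genes by 0.0988, turned *Cnot6l* to 0.024, *Cnot7* to 0.088, *Pan2* to 0.053, *Pan3* to 0.044 and *Noct* to 0.043, and 1801 genes were then higher and 315 lower at an unadjusted p under 0.05 (919 and 651 as reported). TPM without *Ins1* and *Ins2* turned none of these. Leaving out 1 sample gave -0.17 to 0.019 for *Cnot6l* (above 0 without Ctrl replicate 3), -0.18 to 0.10 for *Pan2* and -0.13 to 0.031 for *Pan3* (likewise, and 0.062 for *Pan2* without cKO replicate 2), and -0.23 to 0.089 for *Noct* (the highest without cKO replicate 2, and 0.029 without Ctrl replicate 1). Without Ctrl replicate 3, 47.9% of genes at an unadjusted p under 0.05 were higher in cKO (58.5% as reported). The causes were not tested. Sample weights gave 2512 genes at an unadjusted p under 0.05 and, with 1 sample left out, the number was 1146 to 2373, the highest without Ctrl replicate 1. At an adjusted p under 0.05 the number was 0 to 14 with 1 sample left out, 14 without Ctrl replicate 1, and 0 otherwise (limma).

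Whether samples with the same replicate number were paired is not stated in the labels. Their deviations from the group mean correlated at -0.171, -0.0219 and -0.0652, beside -0.0775 to 0.130 for different numbers. Deviations from means of 3 samples cannot decide it. With the replicate block, *Parn* had a difference of -0.44 (limma unadjusted p = 0.0300), 1 of the 10 deadenylases passed an unadjusted p under 0.05, and 1275 of all genes did (6.01%).

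With 3 samples a group, differences of the size seen in *Cnot8*, *Toe1* and *Cnot6* could not be separated from the spread between samples.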
